A study of Mus musculus with 6 samples.

Results

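The collagen chain genes are described here across the brains of mouse embryos from diabetic and untreated mothers. They were taken as every gene whose annotated symbol is Col, a number, the letter a and a number, which gave 36 of the 12393 genes named on the arrays. The 6 arrays hold embryonic brain RNA at E11.5, counted in days of gestation. In the diabetic group, 3 malformed brains came from embryos of Swiss Albino mice with diabetes induced by streptozotocin (STZ), which destroys pancreatic beta cells. In the control group, 3 brains came from embryos of normal Swiss Albino mice. Because each brain of the diabetic group was malformed, effects of the mother's diabetes and of the malformation cannot be told apart. The labels do not say whether any brains shared a litter, so p-values cover only the spread between these arrays, which may in part be technical.

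Collagens are matrix proteins built from 3 chains wound into a helix, and each gene encodes 1 chain. Fibrillar collagens assemble into the fibres of connective tissue, type IV collagen forms the network of basement membranes, and types XV and XVIII lie in or beside basement membranes. Fibril-associated collagens decorate fibres, type VI forms beaded filaments, and a few members span the cell membrane. In the embryonic brain, basement membranes surround the neuroepithelium and its vessels, while fibrillar chains are known mainly from the mesenchyme and meninges around the brain. By class, 9 fibrillar, 8 basement membrane and 19 other collagen genes were on the arrays.

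The arrays fall in 2 deposited value tables made on different chips, and every difference below was taken within a table: the first holds replicates 1 and 2 of each group and the second holds replicate 3 of each. The median signal of an array was 173 to 227 in the diabetic group and 165 to 222 in the control group. The number of arrays limits the precision, with a median standard error of 0.18 for the log2 change of a collagen gene. All 10 brain markers found on the arrays had a mean signal of at least 100, among them Sox2, a progenitor factor, and Tubb3, a neuronal tubulin. Arrays of dissected tissue do not separate fewer cells of a type from less RNA per cell.

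Of the 36 collagen genes, 26 had a mean signal of at least 100 over the 6 arrays and were tested: 9 fibrillar, 6 basement membrane and 11 other. Nearest to that limit were Col5a3 and Col11a2 inside it, with mean signals of 111 and 113, and Col4a3 outside it with 88.9. The 10 genes left out had mean signals between 5.92 and 88.9, and 9 of them were under 100 on every array. They were Col4a3, Col4a4, Col8a1, Col9a2, Col9a3, Col10a1, Col17a1, Col19a1, Col20a1 and Col22a1, which include 2 chains of the glomerular type IV network (Col4a3 and Col4a4), the collagen of hypertrophic cartilage (Col10a1) and a hemidesmosome collagen (Col17a1).

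Changes of collagen genes between the groups were small, and most lay on the lower side in brains of diabetic mothers. The log2 change was below 0 for 18 of the 26 tested genes, 69.2%, against 47.8% of all 8631 genes tested, and above 0 for the other 8, against 52.2% of all genes. The median change was -0.090 over the collagen genes and 0.012 over all genes tested. Adjusted over all genes tested, limma called 0 collagen genes, against 0% of all genes, and the smallest adjusted p of a collagen gene was 0.526. At an unadjusted p under 0.05, limma counted 3 of the 26 collagen genes, against 7.59% of all genes: Col11a2 on the higher side (3.72% of all genes), and Col15a1 and Col9a1 on the lower side (3.87% of all genes). The diabetic arrays lay wholly on 1 side of the control arrays of their table for 9 collagen genes, 34.6%, against 22.0% of all genes. Of these, 7 were lower in the diabetic group (26.9%, against 10.7% of all genes) and 2 were higher (7.69%, against 11.3% of all genes). Col11a2 is among the 3 genes under 0.05 and among these 2. It averaged 70.0 in control and 155 in diabetic brains, so it was tested because of its signal in the diabetic group. The count of 3 is therefore not read as an excess over all genes. Without diabetic replicate 1 the count on the lower side was 11, and without either array of the second table the count on the higher side was 4. A lack of overlap is reached more easily with fewer arrays, and the share of all genes was not counted there. These 2 counts therefore cannot be set against the shares above.

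**Figure D1:**
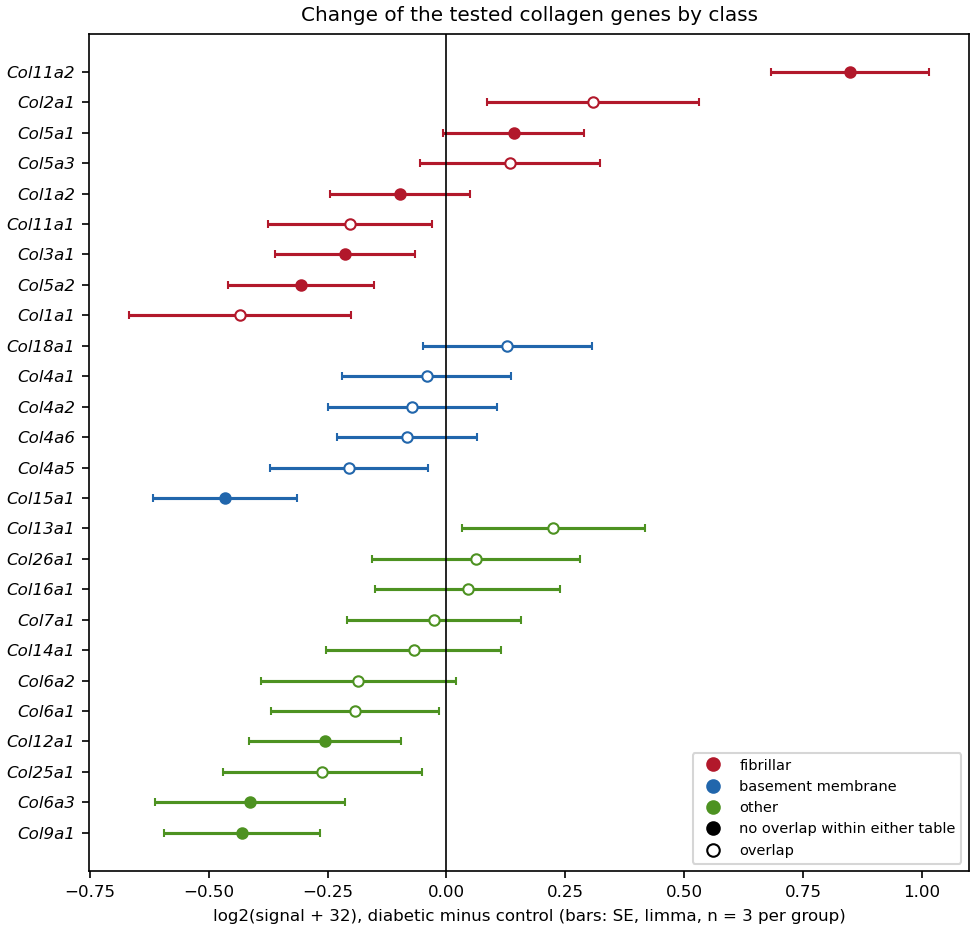
Each point is the log2(signal + 32) of the diabetic minus the control group for 1 tested collagen gene, with its standard error (limma, 3 arrays per group), ordered by class. Filled points mark the 9 genes without overlap within either table. Col11a2 stands apart at 0.85, and 18 of 26 points lie left of 0.

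Among the fibrillar chains, Col11a2 was higher in the diabetic group and the chains of types I, III and V with the brightest probe sets had lower signals. Col11a2 encodes a chain of type XI collagen, a thin fibril that seeds cartilage fibres. Its signals were 211, 156 and 99.5 on diabetic replicates 1 to 3, against 81.3, 79.1 and 49.5 on control replicates 1 to 3. Every diabetic array was above the control arrays of its table, at 2.28 times the control mean for the first table and 2.01 times for the second. The log2 change on the scale of log2(signal + 32), which understates the change of dim genes, was 0.85 ± 0.17 (SE, n = 3 per group), with a 95% interval of 0.48 to 1.22. It ranked 4 of 8631 genes by unadjusted p in limma (5.54e-04, adjusted p 0.526). Leaving out each array in turn gave 0.72 to 0.93, and over all alternatives its adjusted p ranged from 0.216 to 1. Its control mean was 70.0, so the gene was tested because of its signal in the diabetic group.

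The 250 bases before the RefSeq start of 4 collagen genes (mouse build GRCm38.p6) are shown for the member with the largest change, Col11a2, for the basement membrane member with the largest change, Col15a1, and for the 2 fibrillar members with the highest signals, Col1a2 and Col3a1, both lower on every diabetic array. Capitals mark 3 motifs searched on both strands, the TATA box TATAAA, the CCAAT box and the GC box GGGCGG, which do not overlap each other here. Each is a match of letters at any place in the window, and its use as a promoter element was not tested.
Col11a2, chr17:34038888-34039137, plus strand: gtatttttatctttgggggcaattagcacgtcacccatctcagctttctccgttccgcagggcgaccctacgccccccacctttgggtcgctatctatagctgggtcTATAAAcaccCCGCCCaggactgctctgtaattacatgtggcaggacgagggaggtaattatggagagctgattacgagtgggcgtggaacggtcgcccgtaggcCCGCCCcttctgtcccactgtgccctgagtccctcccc
Col15a1, chr4:47207762-47208011, plus strand: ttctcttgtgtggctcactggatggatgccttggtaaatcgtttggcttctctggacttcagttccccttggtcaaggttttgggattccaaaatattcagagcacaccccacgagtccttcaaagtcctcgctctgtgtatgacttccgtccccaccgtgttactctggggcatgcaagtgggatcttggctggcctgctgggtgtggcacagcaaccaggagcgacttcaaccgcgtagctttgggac
Col1a2, chr6:4505368-4505617, plus strand: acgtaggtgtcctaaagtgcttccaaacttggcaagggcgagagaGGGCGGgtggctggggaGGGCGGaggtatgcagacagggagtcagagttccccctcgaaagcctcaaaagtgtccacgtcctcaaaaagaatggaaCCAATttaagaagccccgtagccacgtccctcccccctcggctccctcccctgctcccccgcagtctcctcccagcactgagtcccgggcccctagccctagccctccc
Col3a1, chr1:45311288-45311537, plus strand: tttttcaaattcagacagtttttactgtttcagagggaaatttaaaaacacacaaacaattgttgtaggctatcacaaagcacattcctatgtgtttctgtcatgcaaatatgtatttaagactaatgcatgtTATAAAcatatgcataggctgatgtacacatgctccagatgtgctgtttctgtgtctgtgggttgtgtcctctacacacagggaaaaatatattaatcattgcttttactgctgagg
The Col11a2 window holds 1 TATA box and 2 GC boxes, that of Col1a2 holds 1 CCAAT box and 2 GC boxes, that of Col3a1 holds 1 TATA box, and that of Col15a1 holds none of these letters. Such windows were available here for 27 of the 36 collagen genes, 30 windows in all. A TATA box was in 5 of these 30 and in 12.4% of all 32851 windows, a CCAAT box in 12 and in 33.8%, and a GC box in 16 and in 32.7%.

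With the brightest probe set of each gene, the main chains of connective tissue fibres showed little separation of the groups. Col3a1, the type III chain, had signals of 4227, 4280 and 5391 on diabetic replicates 1 to 3, against 4835, 4765 and 6610 on control replicates 1 to 3. Every diabetic array was below the control arrays of its table, and the log2 change was -0.21 ± 0.15 (SE, n = 3 per group; limma unadjusted p 0.180). Col1a2, a chain of type I collagen, was also lower on every diabetic array, by a smaller margin, with 2710, 2748 and 3310 against 2824, 3055 and 3504 on control arrays. Its log2 change was -0.097 ± 0.15, with a 95% interval of -0.43 to 0.23. The partner chain Col1a1 had 936, 655 and 469 on diabetic arrays, against 743, 1296 and 766 on control arrays. The groups overlapped in the first table, where the control arrays stood farther apart than the group means, and the log2 change was -0.43 ± 0.23. Without control replicate 1 it was -0.69 and without control replicate 2 it was -0.25. The other Col1a1 probe set had 339, 286 and 205 on diabetic arrays, against 406, 478 and 274 on control arrays, lower without overlap within either table.

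Type V collagen, which nucleates type I fibrils, gave chains on both sides of 0. Col5a2 had 1033, 1136 and 1261 on diabetic replicates 1 to 3, against 1480, 1372 and 1402 on control replicates 1 to 3, with no overlap; the log2 change was -0.31 ± 0.15 (SE, n = 3 per group; limma unadjusted p 0.0756). Col5a1 had 774, 794 and 431 on diabetic arrays, against 664, 686 and 428 on control arrays. Its arrays did not overlap either, on the higher side, but the second table differed by 0.011 on the log2 scale. The log2 change over both tables was 0.14 ± 0.15. The other Col5a1 probe set with a mean signal of at least 100 gave -0.056. Col5a3, the third type V chain, had 142, 154 and 54.5 on diabetic arrays, against 97.9, 169 and 49.3 on control arrays, which overlapped in the first table (0.13 ± 0.19).

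The cartilage fibril chains Col2a1 and Col11a1, which share trimers with Col11a2, did not follow it in both tables. Col2a1, the type II chain that is also made in the embryonic neuroepithelium, had 2700, 3323 and 994 on diabetic replicates 1 to 3, against 1781, 2032 and 1292 on control replicates 1 to 3. It was higher on both diabetic arrays of the first table and lower on that of the second, with log2 changes of 0.65 and -0.37, and 0.31 ± 0.22 over both (SE, n = 3 per group). Col11a1 had 594, 502 and 413 on diabetic arrays, against 672, 515 and 555 on control arrays, with overlap in the first table and a log2 change of -0.20 ± 0.17. Its other probe set with a mean signal of at least 100 gave -0.74. That probe set had 88.9, 128 and 231 on diabetic arrays, against 240, 216 and 322 on control arrays, lower without overlap within either table. Over the 9 fibrillar genes, 4 lay above 0 and 5 below, with a median of -0.097.

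**Figure D2:**
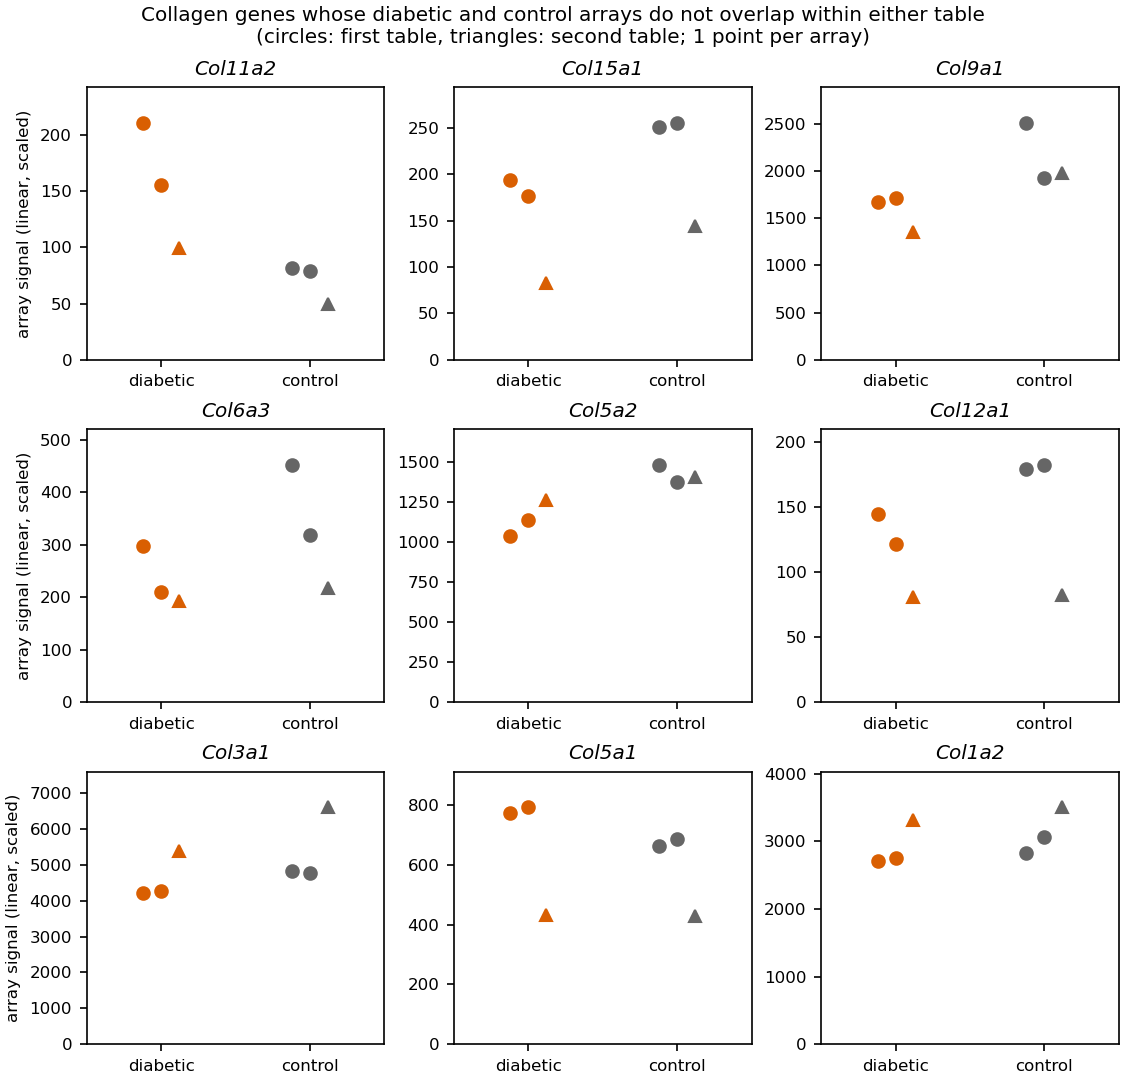
Signals (linear, scaled, vertical axes from 0) of the 9 collagen genes whose arrays did not overlap, 1 point per array, diabetic left and control right. Circles are arrays of the first table and triangles arrays of the second. The points of Col11a2 are higher in the diabetic group in each table, those of Col15a1 and Col9a1 lower, and those of Col1a2, Col5a1 and Col12a1 nearly touch in at least 1 table.

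In the basement membrane class, Col15a1 had lower signals in the diabetic group, and the type IV chains did not separate the groups. Col15a1 encodes the type XV chain, a proteoglycan that links basement membranes to the fibrils beside them. Its signals were 194, 177 and 82.9 on diabetic replicates 1 to 3, against 250.4, 255 and 144 on control replicates 1 to 3. Every diabetic array was below the control arrays of its table, and the mean was 151 ± 59.7 in diabetic and 217 ± 63.0 in control brains (SD, n = 3 each, over both tables). The log2 change was -0.47 ± 0.15 (SE, n = 3 per group; limma unadjusted p 0.0125, adjusted p 0.609), and leaving out each array in turn gave -0.52 to -0.39. Without either array of the second table the unadjusted p was 0.0594. Col18a1, the related type XVIII chain whose end fragment is endostatin, had 2380, 2805 and 1199 on diabetic arrays, against 2447, 1893 and 1320 on control arrays, with overlap and a change of 0.13 ± 0.18.

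Col4a1 and Col4a2, which together make the type IV network of most basement membranes, gave nearly the same changes. Col4a1 had signals of 3244, 3333 and 2446 on diabetic replicates 1 to 3, against 3259, 2687 and 3297 on control replicates 1 to 3. Col4a2 had 1146, 1335 and 918 on diabetic arrays, against 1179, 1086 and 1280 on control arrays. Both overlapped in the first table and were lower in the diabetic array of the second, with log2 changes of 0.15 and -0.43 for Col4a1 and 0.12 and -0.47 for Col4a2. Over both tables the changes were -0.042 ± 0.18 and -0.072 ± 0.18 (SE, n = 3 per group), and the 95% interval for Col4a1, -0.44 to 0.36, leaves room for a change of either sign. The 2 genes are neighbours in the genome and are read in opposite directions.

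A further neighbouring type IV pair, Col4a5 and Col4a6, encodes chains of a network found in fewer basement membranes. Col4a5 had 360, 454 and 323 on diabetic replicates 1 to 3, against 490.4, 411 and 416 on control replicates 1 to 3 (log2 change -0.20 ± 0.17, SE, n = 3 per group). Col4a6 had 241, 237 and 96.5 on diabetic arrays, against 264, 268 and 94.6 on control arrays (-0.082 ± 0.15). The Col4a5 groups overlapped in the first table, and its other probe set gave 0.10, while Col4a6 was lower on both diabetic arrays of the first table and slightly higher on that of the second. Col4a3 and Col4a4, which join Col4a5 in the glomerular network, were under the limit for testing, with mean signals of 88.9 and 5.92. All 4 type IV genes tested lay below 0 over both tables, while the first table alone had 2 above 0 and 2 below.

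In the class of other collagens, Col9a1 and the 3 type VI chains lay below 0. Col9a1 encodes a chain of type IX collagen, which coats cartilage fibrils and is also made in the embryonic eye. Its signals were 1671, 1710 and 1350 on diabetic replicates 1 to 3, against 2509, 1926 and 1982 on control replicates 1 to 3. No diabetic array reached the control arrays of its table, and the log2 change was -0.43 ± 0.16 (SE, n = 3 per group; limma unadjusted p 0.0269, adjusted p 0.646). Without control replicate 1 it was -0.34, and without control replicate 2 it was -0.55. The unadjusted p in limma was 0.0607 without diabetic replicate 1, 0.0993 without control replicate 1 and 0.101 without either array of the second table. Its second probe set did not show this: with 1062, 709 and 419 on diabetic arrays, against 573, 859 and 467 on control arrays, it gave 0.15, and the mean of both probe sets gave -0.14 (unadjusted p 0.369).

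RefSeq lists 2 starts for Col9a1, and the windows of 250 bases before each are shown because the probe sets of this gene differed in sign; which transcript each probe set reads is not given in the sources used here.
Col9a1 upstream start, chr1:24177360-24177609, plus strand: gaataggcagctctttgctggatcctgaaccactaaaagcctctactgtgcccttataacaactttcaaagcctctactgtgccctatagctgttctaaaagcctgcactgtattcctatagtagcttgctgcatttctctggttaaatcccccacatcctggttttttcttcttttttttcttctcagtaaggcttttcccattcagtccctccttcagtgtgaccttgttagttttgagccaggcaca
Col9a1 downstream start, chr1:24194953-24195202, plus strand: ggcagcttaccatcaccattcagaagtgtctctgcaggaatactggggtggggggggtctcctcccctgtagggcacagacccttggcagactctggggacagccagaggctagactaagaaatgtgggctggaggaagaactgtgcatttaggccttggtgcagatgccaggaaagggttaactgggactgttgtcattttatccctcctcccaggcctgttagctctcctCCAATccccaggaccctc
With the same motifs searched, the downstream window holds 1 CCAAT box and the upstream window holds none of the 3. The partner chains Col9a2 and Col9a3 had mean signals of 25.8 and 27.9 and were not tested.

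Type VI collagen, a beaded filament of the matrix around cells, is built from Col6a1, Col6a2 and Col6a3. Col6a3 had 298, 209 and 193 on diabetic replicates 1 to 3, against 452, 319 and 216 on control replicates 1 to 3. Its groups did not overlap, and the log2 change was -0.41 ± 0.20 (SE, n = 3 per group; limma unadjusted p 0.0677), which was -0.24 without diabetic replicate 2 and -0.24 without control replicate 1. Col6a1 had 274, 223 and 145 on diabetic arrays, against 322, 231 and 189 on control arrays, with overlap (-0.19 ± 0.18). Col6a2, its neighbour in the genome, had 381, 415 and 476 on diabetic arrays, against 572, 576 and 344 on control arrays. It was lower in the first table and higher in the second, with log2 changes of -0.50 and 0.43, so its mean of -0.19 ± 0.21 describes neither table.

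Col12a1, a fibril-associated collagen of dense connective tissue, had 144, 121 and 80.5 on diabetic replicates 1 to 3, against 179, 182 and 82.5 on control replicates 1 to 3. Its arrays did not overlap, with a gap in the first table and almost none in the second (-0.37 and -0.025), and the log2 change was -0.26 ± 0.16 (SE, n = 3 per group). Col26a1, a little studied secreted member, had 836, 646 and 593 on diabetic arrays, against 697, 489 and 820 on control arrays, with overlap (0.062 ± 0.22). Col25a1, a membrane collagen of neurons, had 274, 161 and 26.7 on diabetic arrays, against 259, 323 and 25.8 on control arrays. The groups overlapped in the first table, and both arrays of the second were far under 100. The log2 change was -0.26 ± 0.21, and -0.031 without diabetic replicate 2. The remaining 4 genes of this class, Col7a1, Col13a1, Col14a1 and Col16a1, had changes between -0.069 and 0.22. Over the 11 genes of the class, 3 lay above 0 and 8 below, with a median of -0.19, against 0.012 for all genes tested.

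The tables differed for many members. Log2 changes had the same sign in both tables for 15 of the 26 collagen genes, 57.7%, against 51.5% of all genes tested, and for 8 of 9 fibrillar, 2 of 6 basement membrane and 5 of 11 other genes. The fibrillar exception was Col2a1. Over all collagen genes, medians of the first and second tables were -0.12 and -0.15. Basement membrane genes gave -0.0048 and -0.38, and the other collagens -0.20 and -0.049. The second table has 1 array per group, so its values have no replicate check.

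**Figure D3:**
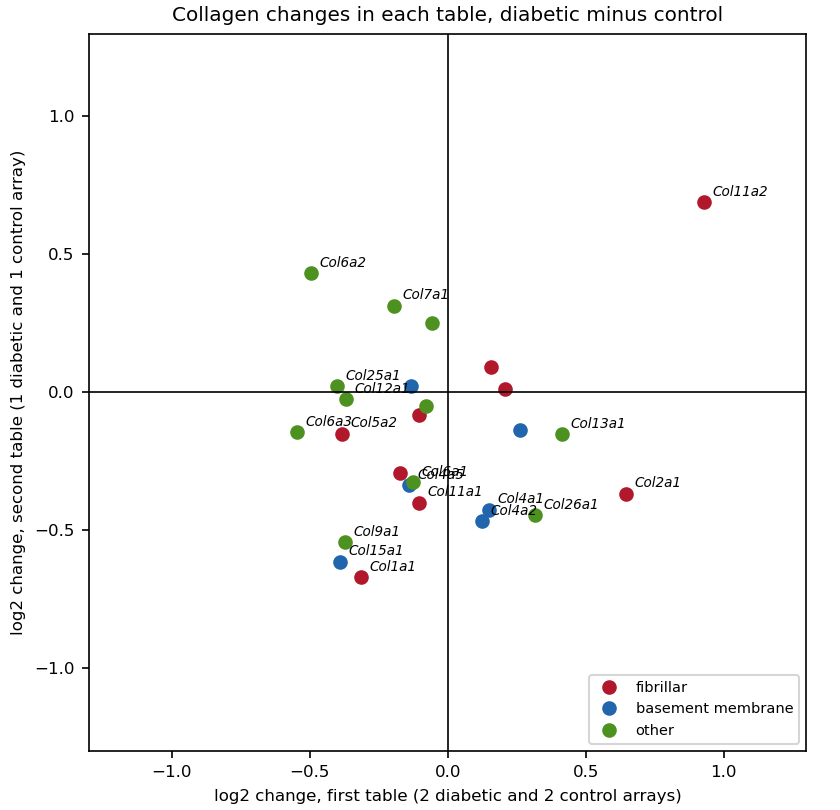
Log2 change (diabetic minus control) of each tested collagen gene in the first table (horizontal axis, 2 arrays per group) and the second table (vertical axis, 1 array per group), coloured by class. Col11a2 lies at 0.93 and 0.69, while Col1a1, Col9a1 and Col15a1 are below 0 on both axes and Col2a1 and Col6a2 lie in opposite quadrants.

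Relative to the control mean of their table, the median of the 26 collagen genes was -0.036, -0.15 and -0.15 on diabetic replicates 1 to 3, with 14, 16 and 18 genes below it. Fibrillar medians were 0.011, -0.095 and -0.15, those of basement membrane genes -0.053, 0.092 and -0.38, and those of other collagens -0.047, -0.36 and -0.049. No single diabetic array was the lowest in all 3 classes.

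**Figure D4:**
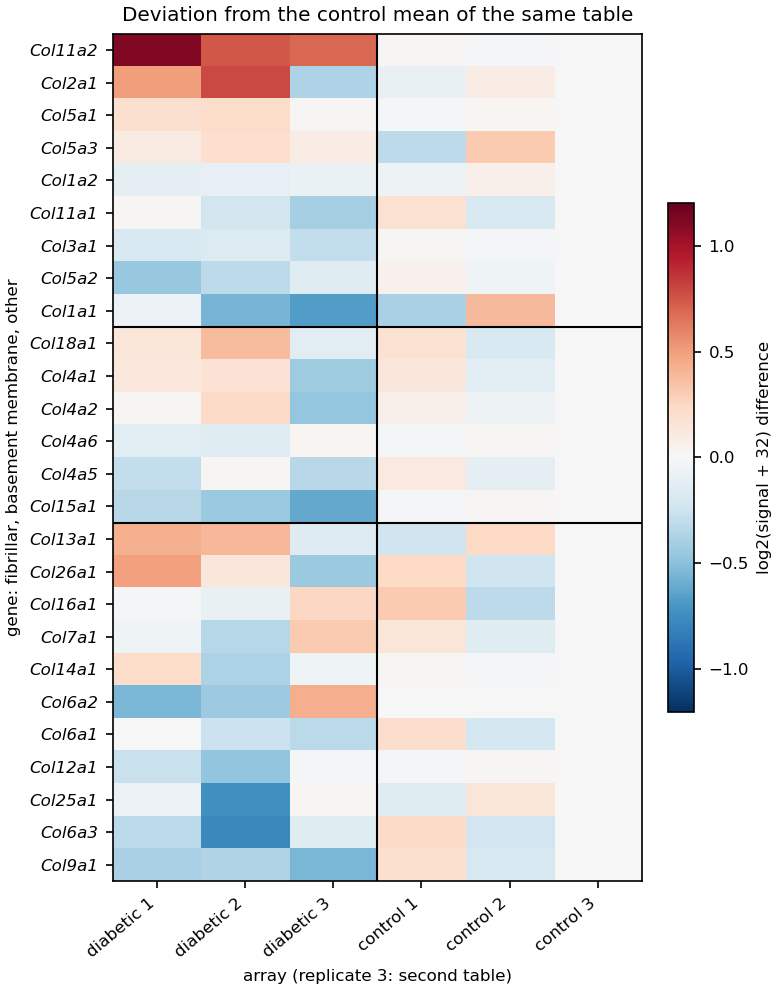
Colour gives log2(signal + 32) of each array minus the control mean of the same table for the 26 tested collagen genes, diabetic arrays left and control arrays right, with lines between classes. Control replicate 3 is 0 throughout because it is the only control array of its table. The row of Col11a2 is positive on all 3 diabetic arrays, between 0.69 and 1.11, and the row of Col15a1 is negative on all 3, between -0.61 and -0.34.

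Several genes had more than 1 usable probe set. Of the 11 genes with more than 1 probe set at a mean signal of at least 100, 8 had the same sign in all of them and 3 did not: Col4a5, Col5a1 and Col9a1. For Col1a1 the changes were -0.43 and -0.43, for Col3a1 -0.37 and -0.21, for Col1a2 -0.17 and -0.097, and for Col5a2 -0.63 and -0.31. With the mean of all probe sets of a gene, Col5a2 had -0.47 and Col1a1 had -0.43, at unadjusted p of 0.00803 and 0.0395 in limma, and Col11a1 had -0.47 (p 0.00882). In that setting 5 collagen genes were under 0.05 in place of 3, against 7.25% of all genes. Col11a2 and Col15a1 had 1 probe set each, which leaves them without this check.

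Enzymes and chaperones that modify and fold collagen chains lay on both sides of 0. Of 14 tested genes of that list, 8 lay above 0 and 6 below, with a median of 0.037, and 0 were under an unadjusted p of 0.05 in limma, against 7.59% of all genes. Leaving out each array in turn gave list medians of -0.011 to 0.14. The smallest p belonged to P4ha1, a subunit of the prolyl hydroxylase that stabilises the helix, with 580, 1721 and 534 on diabetic replicates 1 to 3, against 549, 584 and 365 on control replicates 1 to 3. Diabetic replicate 2 stood far above the others, the groups overlapped, and the log2 change was 0.70 ± 0.32 (SE, n = 3 per group). Mia3, needed to export large collagens from the endoplasmic reticulum, had -0.31 ± 0.18, and Colgalt1, which adds galactose to collagen lysines, had 0.28 ± 0.16.

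Of 7 tested genes of secretion, processing and cross-linking, 3 lay above 0 and 4 below, with a median of -0.23. The sign of this median was not stable: it was 0.15 with array weights, 0.018 in the second table alone, and between -0.29 (without control replicate 2) and 0.071 (without control replicate 1) as arrays were left out. Pcolce, which enhances the removal of the carboxyl propeptide from fibrillar collagens, had 653, 556 and 859 on diabetic replicates 1 to 3, against 841, 947 and 1268 on control replicates 1 to 3. Its groups did not overlap, and the log2 change was -0.54 ± 0.15 (SE, n = 3 per group; limma unadjusted p 0.00614, adjusted p 0.531), at -0.54 and -0.55 in the first and second tables. The cross-linking enzyme genes Loxl4 and Lox lay on opposite sides, at 0.38 ± 0.16 and -0.49 ± 0.21, while the tables gave -0.81 and 0.15 for Lox.

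Receptors and matrix partners gave a mixed picture. Of 4 tested collagen receptors, Ddr1, a receptor kinase activated by collagen, had 1006, 660 and 3176 on diabetic replicates 1 to 3, against 1174, 1273 and 4593 on control replicates 1 to 3. These did not overlap within a table, and differed by -0.55 ± 0.18 on the log2 scale (SE, n = 3 per group; limma unadjusted p 0.0141, adjusted p 0.609), while the related Ddr2 had 0.44 ± 0.20 and Mrc2, an uptake receptor for collagen, 0.20 ± 0.18. Of 9 collagen-binding matrix genes, 2 lay above 0 and 7 below, with a median of -0.22, and medians of -0.47 and 0.054 for the first and second tables. Ogn, a small proteoglycan, had -0.80 ± 0.33 (-1.40 and 0.39 in the tables), Sparc, a collagen-binding glycoprotein, -0.41 ± 0.19, and Fmod, another small proteoglycan, -0.33 ± 0.23. Ogn averaged 89.0 in diabetic and 166 in control brains, and Fmod 87.0 and 124, so both were tested because of their signal in the control group, and both count among the 7 below 0.

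Genes of collagen breakdown and basement membrane partners had medians of -0.090 over 7 genes and 0.030 over 10 genes. The breakdown list mixes proteases with the inhibitors Timp1, Timp2 and Timp3, so its median does not give a direction of breakdown. Leaving out each array in turn gave -0.15 to 0.019 for breakdown and -0.038 to 0.046 for partners, on both sides of 0. Timp1, an inhibitor of matrix metalloproteinases, had 236, 228 and 161 on diabetic replicates 1 to 3, against 186, 160 and 113 on control replicates 1 to 3, with no overlap; its change was 0.38 ± 0.15 on the log2 scale (SE, n = 3 per group; limma unadjusted p 0.0296, adjusted p 0.646). Its relative Timp2 had -0.38 ± 0.21, and Ctsk, a collagen-degrading protease, -0.20 ± 0.16. Hspg2, which encodes perlecan, the heparan sulphate proteoglycan of basement membranes, had 1661, 1416 and 403 on diabetic arrays, against 963, 1116 and 230.4 on control arrays. Every diabetic array was above the control arrays of its table (0.61 ± 0.16, unadjusted p 0.00369, adjusted p 0.526). The laminin chain Lamb1 lay on the other side at -0.39 ± 0.17, and Lamb2 had 0.21 ± 0.18.

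**Figure D5:**
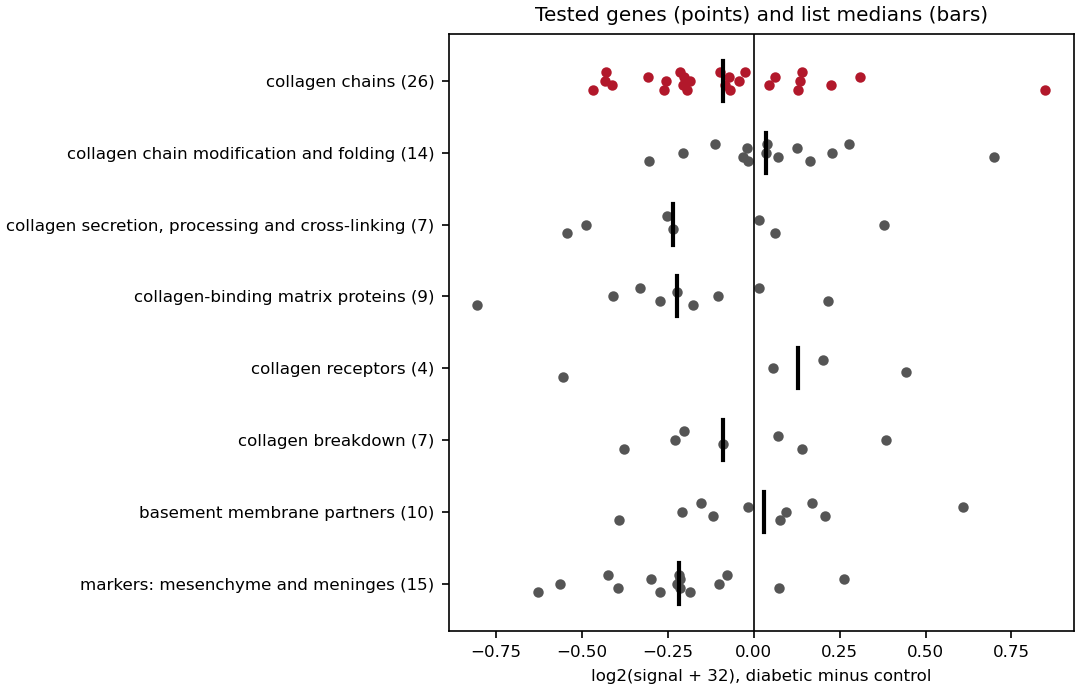
Log2 change (diabetic minus control) of every tested gene in each list, 1 point per gene with the number of genes in brackets, and the list median as a bar. The medians of collagen chains (-0.090) and mesenchyme markers (-0.22) lie below 0, as do those of cross-linking genes (-0.23, but 0.15 with array weights, 0.071 without control replicate 1 and 0.018 in the second table) and collagen-binding matrix genes (-0.22, but 0.054 in the second table).

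Markers of the tissues that make collagen were measured beside these values. Of 15 mesenchyme and meninges markers, 13 lay below 0, with a median log2 change of -0.22 (-0.18 and -0.24 for the first and second tables). Postn, Foxd1 and Zic1, 3 of the 15, were lower without overlap, against 10.7% of all genes. The arrays do not show whether mesenchyme or neural cells gave the signals of listed markers such as Foxd1 and Zic1. The summed signal of the 15 markers was 13189, 13225 and 14800 on diabetic replicates 1 to 3, against 14046, 14557 and 18158 on control replicates 1 to 3, lower in the diabetic group within each table. Crabp2 and Zic1, the brightest of the 15 with mean signals of 4068 and 2471, weigh most in that sum. Prrx1 and Twist1, defining genes of head mesenchyme, had signals of at least 532 on every array. Of these 15, Tbx18 and Aldh1a2 averaged under 100 in the diabetic group and over 100 in the control group. Of 9 cartilage markers, 3 had a mean signal of at least 100, all above 0 over both tables (Sox5, Sox9 and Hapln1, 0.026 to 0.27), while Acan, Matn1 and Comp, which define mature cartilage, had mean signals of 27.6 to 73.9. Only 1 of the 3, Sox5, had the same sign in both tables. Sox9 had 0.25 and -0.35 in the first and second tables, and Hapln1 had -0.21 and 0.50. The summed signal of Sox5, Sox9 and Hapln1 was 926 to 1009 in the diabetic group and 839 to 917 in the control group. The arrays do not show whether cartilage or neural cells gave it, and Acan, Matn1 and Comp were under the limit for testing. Brain markers, 10 genes with a median of -0.076, turned between the tables: the median was -0.39 in the first, with 8 of 10 below 0, and 0.38 in the second, with 8 of 10 above 0. Their summed signal was 12478, 10616 and 19394 on diabetic replicates 1 to 3, against 15107, 14852 and 16350 on control replicates 1 to 3, lower in the first table and higher in the second. Endothelial markers also turned, with medians of -0.13 and 0.32 in the tables, and had a median of 0.014 over 9 genes, mural cell markers -0.12 over 6 genes, surface epithelium markers -0.11 over 7 genes, and muscle markers -0.53 over 2 genes. Myod1, 1 of these 2 muscle genes, averaged 86.9 in diabetic and 140 in control brains. Krt5, a surface epithelium marker, averaged 71.2 and 144. Both were tested because of their signal in the control group. The part of tissue composition in the collagen values was not tested.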

How the data were processed

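Total RNA of embryonic brain was labelled with biotin and hybridised to 6 Affymetrix arrays, per the labels. The deposited values are linear intensity values per probe set, made with GCOS per the submitters' processing notes, with a version and settings not given in the sources used here. The first table comes from MOE430A chips (4 arrays) and the second from Mouse430A_2 chips (2 arrays), per the file headers of the run settings. The trimmed mean of each array (2% cut at either end) was about 500, and signals were rescaled to exactly that value.

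Groups came from the sample titles. Genes were named from probe sets with 1 gene in the platform annotation (20380 of 22690), and 36 of 36 collagen symbols matched RefSeq. For each gene the probe set with the highest mean signal was used. Genes averaging 100 or more were fitted on log2(signal + 32) in limma 3.58.1 under R 4.3.3 (functions lmFit and eBayes, table as a block, two-sided, Benjamini-Hochberg adjustment over 8631 genes, threshold 0.05). Probe sets of different genes are not comparable in level. Basement membrane collagens were types IV, XV and XVIII.

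The collagen genes, classes and lists were chosen with earlier results of these data known. Values on every array were given for genes without overlap, the 4 brightest of each class and their chain partners, and up to 3 genes of smallest p were named per partner list. Within the first table the replicate numbers of the groups shared a correlation of -0.013 across genes, which gives no sign of pairing. Alternatives covered the pseudocount, filter, normalization, probe set rule, block, weights, single tables and leaving out arrays.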

Additional observations from a re-analysis of the deposited data

How the results depend on the processing

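Over 18 alternatives, 0 collagen genes passed the adjustment in limma in each of the 17 that allow a test. In every fit without 1 array, 3 of the 26 collagen genes had an unadjusted p under 0.05, against 4.82% to 9.80% of all genes. These 3 held Col11a2 each time and Col15a1 or Col9a1 in part of these fits. Col11a2 was tested because of its signal in the diabetic group. Leaving out either array of the second table gives the same fit as the first table alone, so these 3 alternatives are 1 test. The count under 0.05 was 1 with a mean signal of 200 or more, where 17 collagen genes were left, against 7.83% of all genes. It was 5 of 24 with the mean of all probe sets (7.25% of all genes) and 1 with no block (1.12%). With the replicate block the count was 4, against 7.33% of all genes, and the gene it added was Col6a3. The smallest adjusted p of a collagen gene in limma was then 0.506, and the replicate block changed no adjusted call. The count of genes higher without overlap was 1 with a mean signal of 200 or more, 1 with the mean of all probe sets, and 4 in the first table alone. In the second table alone, with 1 array per group, no overlap is possible, so its counts of 8 higher and 18 lower only restate the signs. As single arrays were left out, 8 to 11 genes were lower and 2 to 4 higher without overlap, and 16 to 21 had a change below 0. With array weights, 15 of the 26 genes had a change below 0, and the median over the collagen genes was -0.043. The matching shares of all genes were not counted, and a lack of overlap is reached more easily with fewer arrays. These counts therefore describe the settings and are not read as results about collagen genes. The fibrillar median was -0.20 with a mean signal of 200 or more and -0.21 with the mean of all probe sets, and the basement membrane median was -0.38 in the second table alone. Leaving out single arrays gave -0.13 to -0.063 for fibrillar, -0.17 to -0.0048 for basement membrane and -0.24 to -0.031 for other collagens. In 12 of the 26 genes no alternative turned the sign, among them Col11a2, Col15a1 and Col9a1. With array weights Col4a1, Col7a1 and Col14a1 turned to 0.073, 0.026 and 0.050, and with the mean of all probe sets Col5a1 turned to -0.046. In the first table alone Col16a1, Col4a1 and Col4a2 turned to -0.058, 0.15 and 0.12. In the second alone Col13a1 had -0.15, Col18a1 -0.14, Col25a1 0.022, Col26a1 -0.45, Col2a1 -0.37, Col4a6 0.022, Col6a2 0.43 and Col7a1 0.31. Without single arrays, the turned genes ranged from -0.24 to 0.10 (Col14a1), -0.10 to 0.25 (Col16a1), -0.014 to 0.26 (Col18a1), -0.15 to 0.32 (Col26a1), -0.18 to 0.15 (Col4a1), -0.19 to 0.12 (Col4a2), -0.052 to 0.31 (Col5a3) and -0.20 to 0.11 (Col7a1). The cause of these differences was not tested. Signal over background was not assessed.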
